A study of Homo sapiens with 6 samples.

Results

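Genes of the regulated secretory pathway were followed in 6 tumour libraries of the DMS114 sciatic nerve invasion model. The DMS114 cell line derives from a human small cell lung cancer, and per the labels all 6 samples were tumour tissue of this line, 3 labelled as proximal and 3 as distal invasive region. No agent, host genotype, time or animal is given, so the groups differ by region alone as far as the labels say, and nothing says that replicates came from separate animals. The p-values therefore measure the spread between these libraries, which may be technical. The 10 genes were chosen by symbol: the granins CHGA, CHGB, SCG2, SCG3 and VGF, the convertases PCSK1 and PCSK2, the convertase chaperone SCG5, the carboxypeptidase CPE and the vesicle membrane protein SYP. Of these 10, among 17081 genes in the count file, 9 had a row, and counts of PCSK1 were not analysed here. The expression filter kept 7 of the 9, and SCG2 and PCSK2 fell below it.

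Neuroendocrine cells store peptide hormones in dense core granules and release them on demand. Granins are acidic proteins that help granule cargo to gather and be sorted at the Golgi. Prohormone convertases cut the precursors after pairs of basic residues, carboxypeptidase E trims the exposed basic residues, and amidation often completes the peptide. Chromogranin A and synaptophysin are routine markers of small cell lung cancer and other neuroendocrine tumours.

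Total counts per library lay between 16171106 and 26116191. Levels are given as CPM, the usual unit of counts relative to library size, with TMM scaling, the trimmed mean of M values. The label of a small cell line was checked against markers. YAP1, the coactivator that marks a subtype with few neuroendocrine traits, had 167 to 187 CPM, while POU2F3, a tuft cell factor, had at most 0.247 CPM. NEUROD1, a neuroendocrine factor, had 0.0462 to 0.618 CPM in 5 libraries and 6.47 CPM in distal 3. Distal 3 also stood apart in skeletal muscle transcripts: the 20 muscle markers summed to 2748 CPM there, to 406 CPM in proximal 3 and to between 24.2 and 59.0 CPM in the other 4 libraries. In bulk tissue, fewer cells of a type and less RNA per cell cannot be told apart.

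The stretch before the transcription start is shown for CHGA and VGF, which hold the palindrome TGACGTCA, the cyclic AMP response element, and for SYP and CPE, the most abundant members, which do not. Each sequence is the last 120 bases before the RefSeq start (GRCh38.p14), read 5′ to 3′ on the strand of the gene, and capitals mark the element. For CHGA and VGF, this start lies inside the full span of the gene given with its values.

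CHGA (chr14:92923030-92923149, plus strand): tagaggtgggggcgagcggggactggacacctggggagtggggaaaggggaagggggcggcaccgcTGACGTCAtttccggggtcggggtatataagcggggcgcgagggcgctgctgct
VGF (chr7:101165570-101165689, minus strand): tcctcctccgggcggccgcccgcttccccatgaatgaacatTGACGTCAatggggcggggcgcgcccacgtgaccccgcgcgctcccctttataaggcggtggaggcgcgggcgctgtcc
SYP (chrX:49200194-49200313, minus strand): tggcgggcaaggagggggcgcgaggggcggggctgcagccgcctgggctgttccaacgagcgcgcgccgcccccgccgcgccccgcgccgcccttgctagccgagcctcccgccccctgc
CPE (chr4:165378888-165379007, plus strand): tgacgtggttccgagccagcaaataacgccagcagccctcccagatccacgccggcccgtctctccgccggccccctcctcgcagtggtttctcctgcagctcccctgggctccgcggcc

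The element lay 54 to 47 bases before the start in CHGA and 79 to 72 bases before it in VGF. Over the 250 bases before each start and on both strands, TGACGTCA was found in 3 of the 8 members with an entry, the third being PCSK1 at 77 to 70 bases, and in 2.03% of the 27305 genes of the promoter table, a gene counting where any of its entries held the motif. CHGB and SCG2 had no entry. The core TGACG, which the palindrome contains on each strand, was found in 6 of the 8 members and 24.9% of all genes. The E-box CAGCTG was found in SCG3 and PCSK1 and in 16.7% of genes, and the E-box CAGATG in none of the 8 members and 14.6% of genes. For RE1, the element read by the repressor REST, TTCAGCACC was found in no member and 0.355% of genes, and GGACAGCG in VGF and 1.55% of genes. These matches describe letters in a window and show no binding.

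Compared per exon length, the members spanned a wide range of levels. SYP had the highest level, at 11.55 ± 0.431 CPM per kb of exon (SD, n = 6), and CPE followed at 7.19 ± 0.983 CPM per kb. CHGB had 3.73 ± 1.82, CHGA 2.24 ± 0.159, SCG5 1.53 ± 0.369, SCG3 1.15 ± 0.356 and VGF 0.772 ± 0.207 CPM per kb. PCSK2 averaged 0.0303 and SCG2 0.00535 CPM per kb. The lowest SYP library (10.9 CPM per kb) lay above the highest CPE library (8.82), and the lowest VGF library (0.496) above the highest PCSK2 library (0.0517). Between those gaps, and between PCSK2 and SCG2, each gene's range overlapped that of its neighbour, narrowly for CPE (from 6.03) and CHGB (up to 6.05). Per length of the longest coding transcript the order was the same, with SYP at 24.1 and CHGB at 6.63 CPM per kb.

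**Figure D1:**
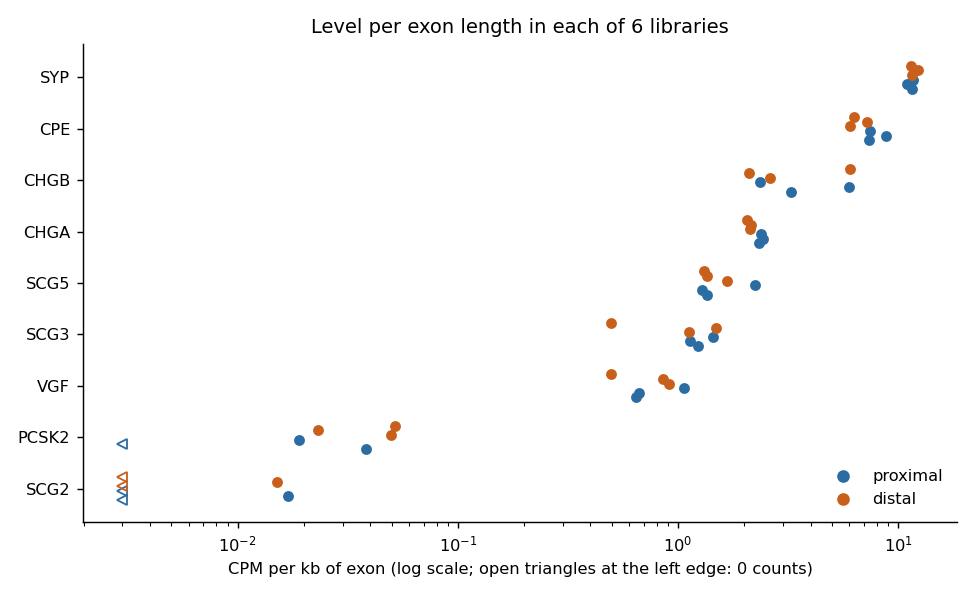
CPM per kb of exon (log axis) for the 9 genes with a row, 1 point per library, blue for proximal and orange for distal. SYP lies at 10.9 to 12.2 and CPE at 6.03 to 8.82, while SCG2 and PCSK2 stay at or under 0.0517, with open triangles for libraries at 0 counts.

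Among the tested granins, CHGB had the largest coefficient of variation between libraries, 48.7%. The highest library was 2.90 times the lowest for CHGB and 3.00 times the lowest for SCG3. CHGB (chromogranin B, chromosome 20, 5911510 to 5925353) had 14.8, 27.1 and 10.7 CPM in proximal 1, 2 and 3 and 11.9, 9.47 and 27.5 CPM in distal 1, 2 and 3. Proximal 2 and distal 3 were high, 1 library from each region, and the groups overlapped. The 95% Poisson intervals of these 2 libraries, 24.99 to 29.4 and 24.97 to 30.1 CPM, lay above the upper bound of 16.4 CPM in proximal 1, the highest of the other 4. Muscle markers summed to 59.0 CPM in proximal 2 and 2748 CPM in distal 3, and to 406 CPM in proximal 3, where CHGB was at 10.7 CPM. Their part in the CHGB levels was not tested. CHGB averaged 17.5 ± 8.56 CPM over the proximal and 16.3 ± 9.76 CPM over the distal libraries (SD, n = 3 per region). Its log2 fold change, distal minus proximal, was -0.12 (SE 0.55, 95% interval -1.53 to 1.29), with an adjusted p of 0.9997 by edgeR's quasi-likelihood test. It was 0.34 without proximal 2, -0.71 without distal 3 and -0.97 without both proximal 3 and distal 3, the libraries with the most muscle transcripts.

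CHGA, chromogranin A (chromosome 14, 92922664 to 92935285), was even across the libraries. Proximal 1, 2 and 3 had 7.23, 7.57 and 7.36 CPM, and distal 1, 2 and 3 had 6.61, 6.63 and 6.34 CPM. Every distal library lay below every proximal one, but the 95% Poisson intervals of all 6 libraries shared the range from 6.46 to 7.69 CPM. The log2 fold change of CHGA was -0.18 (SE 0.17, 95% interval -0.56 to 0.20), with an adjusted p of 0.9997 (unadjusted 0.3202) by edgeR's quasi-likelihood test.

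SCG3 (secretogranin III, which ties granin aggregates to the granule membrane, chromosome 15, 51681503 to 51721026) had 4.10, 3.74 and 4.76 CPM in proximal 1, 2 and 3. In distal 1, 2 and 3 it had 3.70, 4.94 and 1.65 CPM. Distal 3 alone was low: its Poisson interval of 1.09 to 2.40 CPM lay below the lower bounds of the other 5 libraries, of which the lowest was 2.95 CPM. The log2 fold change of SCG3, -0.28 (SE 0.36), was 0.042 without distal 3 and 0.14 without proximal 3 and distal 3.

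VGF, a granin-like precursor induced by growth factors (chromosome 7, 101162509 to 101169952), was read at 1.74, 1.80 and 2.87 CPM in proximal 1, 2 and 3 and at 2.47, 2.31 and 1.34 CPM in distal 1, 2 and 3. It was lowest in distal 3 and highest in proximal 3, and the groups overlapped. Its log2 fold change was -0.06 (SE 0.36), which became 0.21 without proximal 3, 0.16 without distal 3 and 0.43 without both. SCG2 (secretogranin II, the secretoneurin precursor, chromosome 2, 223596940 to 223602361) had 1 count in proximal 2, 1 in distal 2 and 0 in the other 4 libraries. Taking 3 counts as the most that a count of 0 allows, the limit was 0.183 CPM in distal 3, the shallowest library, and 0.116 CPM in proximal 1. SCG2 did not enter the test, and in the edgeR fit with no low-count filter it was not called. These limits and the Poisson intervals cover counting error only.

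The convertase PCSK2 was at the edge of detection. PCSK2, which with PCSK1 cuts prohormones at paired basic residues (chromosome 20, 17226107 to 17484578), had 7, 0 and 3 counts in proximal 1, 2 and 3 and 8, 4 and 6 counts in distal 1, 2 and 3. These counts correspond to at most 0.366 CPM. The groups overlapped, and at 28 counts in all PCSK2 did not enter the test. SCG5, the 7B2 chaperone that PCSK2 needs to mature (chromosome 15, 32641710 to 32697092), was read in every library. Its levels were 2.98, 2.82 and 4.89 CPM in proximal 1, 2 and 3 and 3.66, 2.97 and 2.87 CPM in distal 1, 2 and 3. Proximal 3 was highest, and the groups overlapped. The log2 fold change of SCG5 was -0.17 (SE 0.29), and it was 0.13 without proximal 3 and 0.19 without proximal 3 and distal 3.

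CPE, carboxypeptidase E (chromosome 4, 165379008 to 165498547), was the most abundant processing enzyme among the members. Its levels were 21.7, 26.1 and 21.9 CPM in proximal 1, 2 and 3 and 17.8, 21.4 and 18.7 CPM in distal 1, 2 and 3. All distal libraries lay below all proximal ones, with distal 2 close under proximal 1. The log2 fold change of CPE was -0.27 (SE 0.13, 95% interval -0.55 to 0.02), with an adjusted p of 0.9997 (unadjusted 0.06419) by edgeR's quasi-likelihood test. With single libraries left out, the log2 fold change of CPE ran from -0.35 without distal 2 (unadjusted p 0.04518 by edgeR's quasi-likelihood test) to -0.18 without proximal 2. Without proximal 3 and distal 3 it was -0.28.

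SYP, synaptophysin, a membrane-spanning protein of small vesicles (chromosome X, 49187815 to 49200193), was the steadiest member. It had 60.1, 56.9 and 60.7 CPM in proximal 1, 2 and 3 and 60.3, 63.8 and 59.4 CPM in distal 1, 2 and 3. No library stood apart, and the highest was 1.12 times the lowest. The log2 fold change of SYP was 0.05 (SE 0.09, 95% interval -0.15 to 0.24). This interval is 0.903-fold to 1.18-fold and covers the spread between these libraries only.

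**Figure D2:**
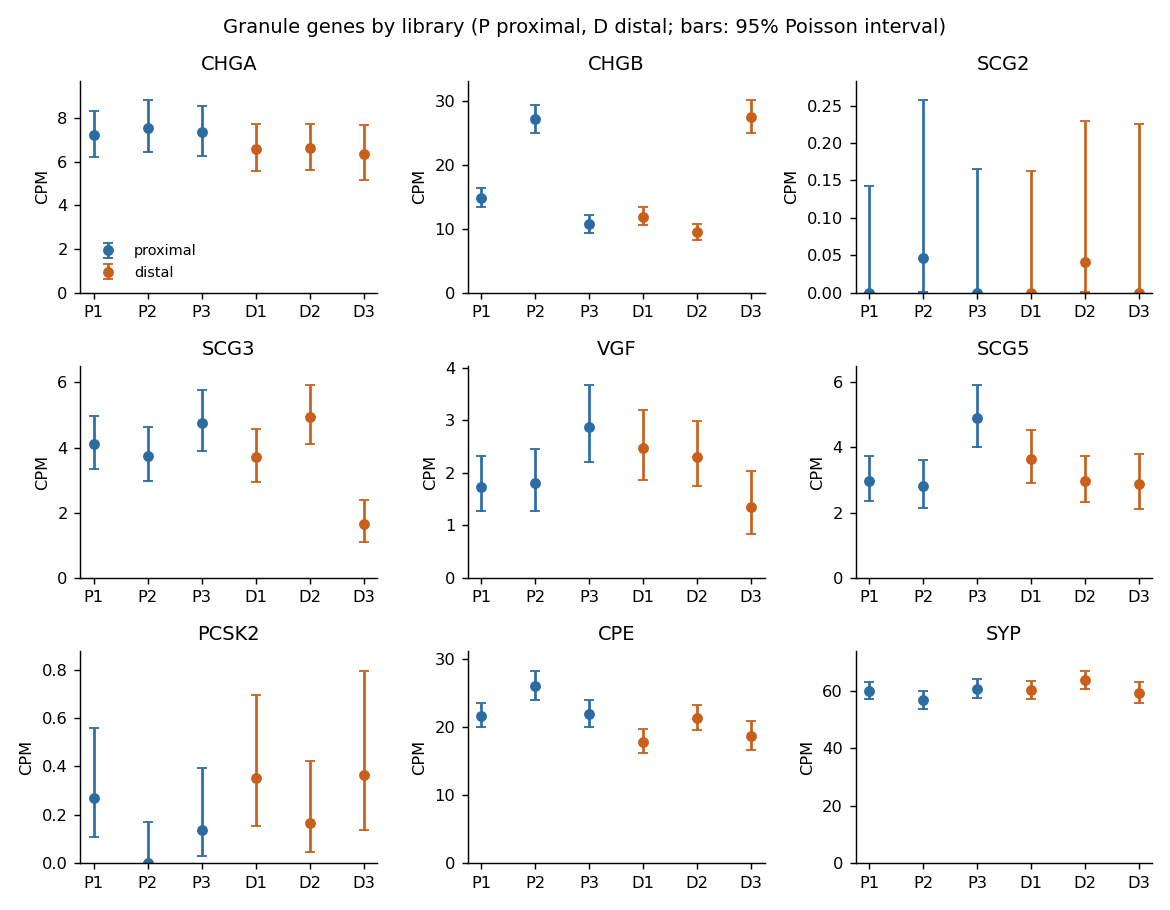
CPM of each gene in proximal (P1 to P3, blue) and distal (D1 to D3, orange) libraries, with bars for the 95% Poisson interval and a separate linear axis per gene. CHGB is high in P2 and D3 (27.1 and 27.5 CPM), SCG3 is low in D3 (1.65 CPM) and SYP lies between 56.9 and 63.8 CPM.

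No member differed between the regions by the test: 0 of 7 tested members were called at an adjusted p under 0.05, as were 0 of 13382 genes (0%). At an unadjusted p under 0.05 there were 0 of 7 members and 178 genes (1.33%). With other tools, limma-voom called 0 genes, and DESeq2 called 1 gene, EDIL3, which is no member. The count of members called was 0 in each of the 16 alternative settings. The regions did not overlap in CPM for 2 of 7 members, CHGA and CPE, both lower in distal, and for 6.29% of all tested genes. In the fit, 6 members had lower and 1 had higher distal values, beside 6482 lower and 6900 higher over all tested genes. The median of the members' log2 fold changes was -0.17, beside 0.0045 over all tested genes. This split turned without proximal 3 and distal 3, to 3 lower and 4 higher members with a median of 0.09. It was 4 lower and 3 higher without proximal 3 alone or distal 3 alone, with medians of -0.18 and -0.11. The 95% interval lay within 2-fold in either direction for 5 of 7 members, CHGB and SCG3 being the exceptions, and for 84.0% of tested genes. For CHGB the interval ran from 0.347-fold to 2.45-fold.

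**Figure D3:**
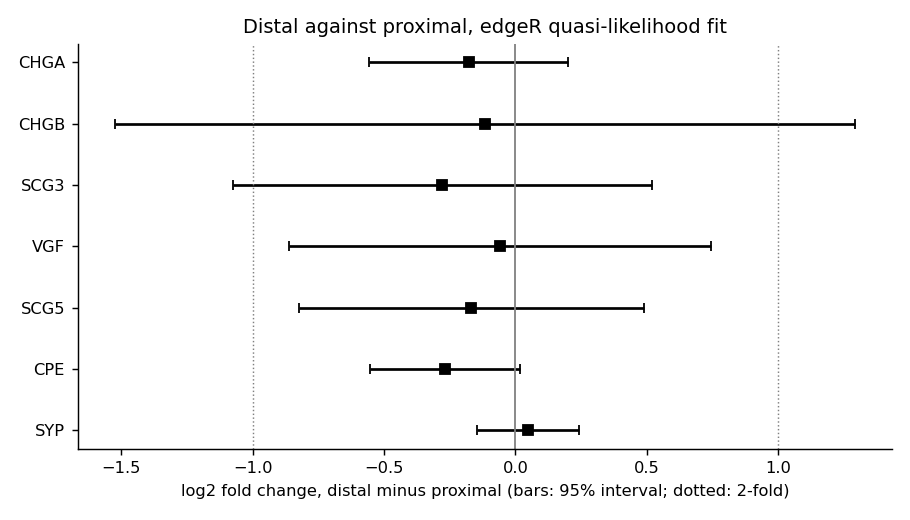
Log2 fold change, distal minus proximal, of the 7 tested members with 95% intervals from the edgeR fit, dotted lines marking 2-fold. Every interval crosses 0, and those of CHGB (-1.53 to 1.29) and SCG3 (down to -1.08) reach past 2-fold.

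The spread between libraries of one region differed among the members. It was measured as the biological coefficient of variation, edgeR's estimate of the relative spread beyond counting error. That of CHGB was 0.463, larger than in 96.6% of tested genes and in 98.1% of the 2068 genes with a mean within 1.5-fold of its own. SYP had 0.112 and CHGA 0.194, at the 16.3 and 9.56 percentiles among genes of similar mean. CPE (0.149), SCG5 (0.283) and VGF (0.321) lay between the 44.6 and 53.9 percentiles of their levels, and SCG3 (0.329) at the 78.8 percentile. These are descriptions of 6 libraries, and the estimates are drawn toward the trend of genes of like abundance.

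**Figure D4:**
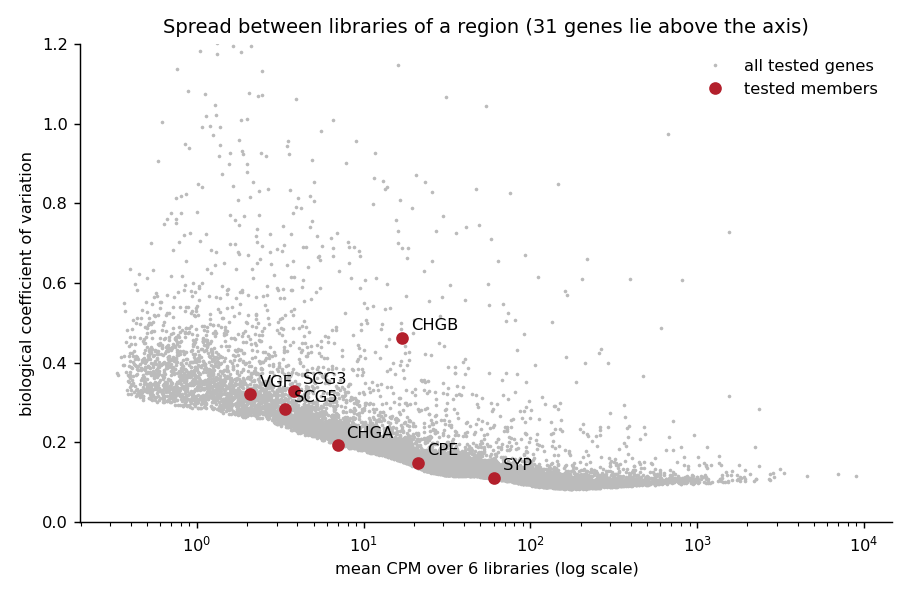
Biological coefficient of variation against mean CPM (log axis), with grey points for the tested genes, of which 31 lie above the axis limit of 1.2, and red points for the 7 tested members. CHGB stands at 0.463, CPE at 0.149 and SYP at 0.112.

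The members did not share one pattern across the 6 libraries. Among 21 pairs, Pearson's r of log2 CPM ran from -0.83 to 0.85 with a median of 0.23, and 14 pairs were above 0. The highest values were those of CHGA with CPE (0.85) and of VGF with both SCG3 and SCG5 (0.79 each). CHGB went against VGF (-0.83), SYP (-0.83) and SCG3 (-0.74). With 6 libraries that share depth and composition, these r values only describe the pattern. CHGA and VGF, the 2 genes shown with the cyclic AMP response element, had an r of 0.26.

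Genes outside the members that were most like CHGB over the 6 libraries, out of 9581 with a mean of at least 10 CPM, were C1orf21 (r 0.998), BMERB1 (0.995) and UPRT (0.992). C1orf21 had 41.5, 65.3 and 33.9 CPM in proximal 1, 2 and 3 and 36.1, 29.9 and 62.6 CPM in distal 1, 2 and 3. Most like SYP were CCDC113 (0.988), BPHL (0.988) and PHTF1 (0.974), though SYP itself varied little. Proximal 2 and distal 3 were the 2 highest libraries for 1 member, CHGB, and for 11% of tested genes. They were the 2 lowest for 2 members, SYP and SCG5, and for 11.3% of tested genes. In 23 of 9584 genes that averaged 10 CPM or more (0.24%), both were at least 1.5 times the highest of the other 4 libraries, a criterion set after the CHGB values were seen. CHGB was 1 of the 23, and SV2A and RIMS2 of the wider granule lists were among them. SV2A, a vesicle glycoprotein, had 19.4, 42.7 and 16.3 CPM in proximal 1, 2 and 3 and 21.9, 17.2 and 60.4 CPM in distal 1, 2 and 3. RIMS2, an active zone scaffold that also serves granule release, had 35.2, 89.5 and 24.7 CPM in proximal 1, 2 and 3 and 35.7, 29.1 and 134 CPM in distal 1, 2 and 3. That both were high in the same 2 libraries as CHGB follows from the criterion. Distal 3 exceeded proximal 2 for each. The 23 also held genes outside the granule lists, such as HOXC10, TCEAL7 and RNF144B.

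**Figure D5:**
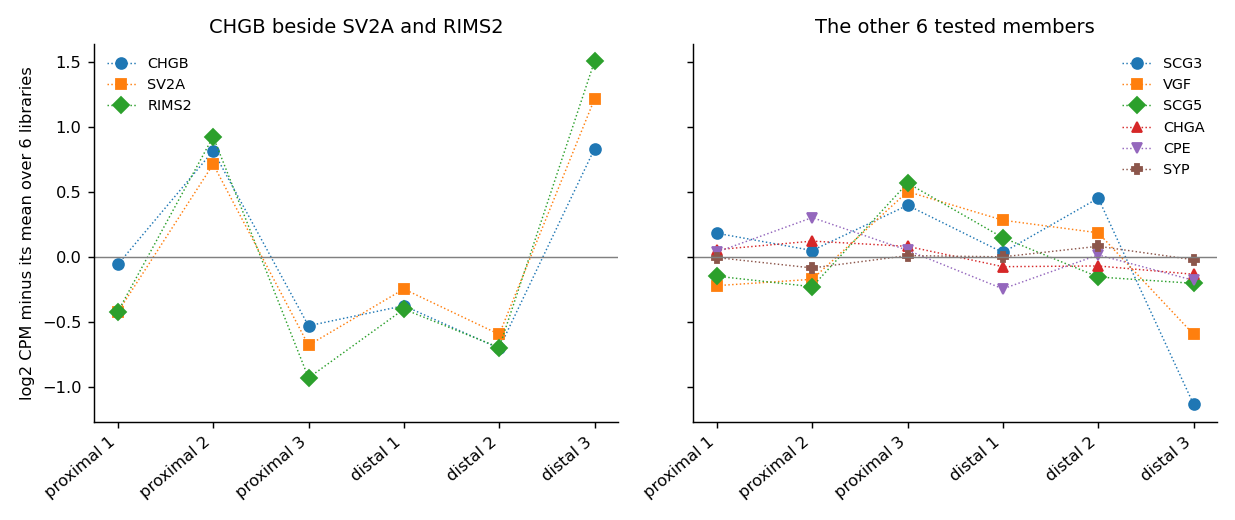
Log2 CPM minus its mean over the 6 libraries, for CHGB, SV2A and RIMS2 (left) and the other 6 tested members (right), with dotted lines only to guide the eye. CHGB lies at 0.82 in proximal 2 and 0.83 in distal 3 and below 0 elsewhere, and SCG3 lies at -1.11 in distal 3. SV2A and RIMS2 met a criterion of being high in proximal 2 and distal 3.

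Other genes of prohormone processing were read at higher counts than PCSK2. Of 20 such genes, 16 were tested and 0 passed, with 9 higher and 7 lower distal values and a median difference of 0.02 on the log2 scale. MBTPS1, the site 1 protease of the Golgi, had 183 to 219 CPM, and CPD, a carboxypeptidase of the trans-Golgi, 146 to 191 CPM. PAM, the amidating enzyme, had 38.6 to 74.1 CPM and was lowest in distal 3. PCSK7, a broadly expressed convertase, had 43.3 to 58.0 CPM. FURIN, named after its values were seen, had 31.8 to 39.2 CPM in every library, beside at most 0.366 CPM of PCSK2. PCSK1N, the precursor of a PCSK1 inhibitor, had 6.88 to 10.7 CPM.

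Of 23 genes of the granule membrane, loading and acidification, 16 were tested and 0 passed, with 5 higher and 11 lower values and a median of -0.06. The 4 most abundant were the proton pump parts ATP6V1A (169.7 to 209.5 CPM), ATP6AP2 (137 to 181 CPM), ATP6V1C1 (133 to 149.5 CPM) and ATP6V1B2 (114 to 132 CPM). ATP6V1A averaged 199.9 ± 8.88 CPM over the proximal and 175 ± 4.96 CPM over the distal libraries (SD, n = 3 per region). Its log2 fold change was -0.19 (SE 0.07), with an adjusted p of 0.9997 by edgeR's quasi-likelihood test. Among membrane proteins of the same list, VAMP2 had 67.5 to 77.7 CPM and CYB561 12.8 to 18.2 CPM. PTPRN2 had 8.90 to 12.1 CPM and PTPRN 1.08 to 2.51 CPM. These 4 were named after their values were seen.

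All 31 genes of granule biogenesis and sorting were tested and 0 passed, with 10 higher and 21 lower values and a median of -0.04. TMED2 and TMED10, cargo receptors between endoplasmic reticulum and Golgi, had 334 to 412 CPM and 212 to 240.4 CPM, AP1G1, a clathrin adaptor subunit, 233 to 248 CPM and VPS13A, a lipid transfer protein, 205 to 293 CPM. Of 37 docking and release genes, 25 were tested and 0 passed, with 10 higher and 15 lower values and a median of -0.07. SYT11, a synaptotagmin, had 174 to 208 CPM, MYO5A, a myosin motor, 120.5 to 149.8 CPM and UNC13B, a priming factor, 47.8 to 61.5 CPM. CADPS, the priming factor typical of dense core granules and named after its values were seen, had 28 counts in distal 2 and at most 3 in any other library. Among 7 relatives of synaptophysin, 5 were tested and 0 passed, with 3 higher and 2 lower values and a median of 0.03. SYPL1, the widely expressed relative, had 72.5 to 103 CPM, SYNGR2 17.0 to 28.4 CPM, SYNGR1 18.7 to 23.4 CPM and SYPL2 6.88 to 14.2 CPM.

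Peptide precursors that such granules could carry were few at these levels. Of 53 listed, 15 were tested and 0 passed, with 13 higher and 2 lower distal values and a median of 0.53. GAL, the galanin precursor, ranged from 10.6 to 15.7 CPM in proximal tumour and from 17.6 to 19.4 CPM in distal tumour. Its log2 fold change was 0.53 (SE 0.17) with an adjusted p of 0.9997 by edgeR's quasi-likelihood test. GCG, the glucagon precursor, named after its values were seen, had 0.831 to 1.12 CPM in proximal and 1.94 to 4.49 CPM in distal libraries. The log2 fold change of GCG was 1.61 (SE 0.40), also with an adjusted p of 0.9997 by edgeR's quasi-likelihood test. GAL and GCG were the 2 precursors whose groups did not overlap, of 15 tested, beside 6.29% of all tested genes. ADM had 4.75 to 11.2 CPM and ADM2 4.15 to 6.52 CPM. POMC, a classic substrate of both convertases and named after its values were seen, had 1 count in proximal 1 and in distal 3 and 0 in the others.

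Regulators of the neuroendocrine programme included abundant repressors. Of 32 genes, 23 were tested and 0 passed, with 10 higher and 13 lower values and a median of -0.04. NOTCH2 had 194 to 282 CPM, and the corepressor genes SIN3A and RCOR3 had 140.1 to 179.5 CPM and 126 to 149 CPM. REST, the repressor of neuronal genes, had 91.0 to 104 CPM and CREB1, a factor that binds the cyclic AMP response element, 104 to 121 CPM, both named after their values were seen. INSM1, a neuroendocrine factor named in the same way, had 0.837 to 1.46 CPM. Of 23 other neuroendocrine markers, 18 were tested and 0 passed, with 9 higher and 9 lower values and a median of -0.00019. KIF1A, a motor that carries dense core vesicles, had 256 to 429 CPM and was lowest in distal 3, and ENO2, neuron-specific enolase, had 22.4 to 50.9 CPM and was highest there. KIF5C had 16.0 to 20.9 CPM and SYN2 9.97 to 14.2 CPM. These 4 had the highest mean CPM of the list, and its other markers averaged less. UCHL1 had 2.60 to 5.11 CPM and NCAM1 0.352 to 3.90 CPM. SYN1 had 0.396 to 0.923 CPM and DDC at most 0.0898 CPM. UCHL1, NCAM1, SYN1 and DDC were named after their values were seen.

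Markers of other cell types that could bring granule transcripts were read beside these values. Of 12 peripheral neuron markers 9 were tested, and all 12 summed to 339.9 to 364 CPM in proximal and 335 to 409 CPM in distal libraries. ISL1, NEFL, NEFM and NEFH made up most of that sum, and NEFL and NEFM were highest in distal 3, while TH and SCN10A had at most 0.244 CPM. ISL1, at 92.5 to 124 CPM, is also in the list of regulators of the neuroendocrine programme. Whether the sum came from tumour cells or from nerve was not tested. Schwann cell markers summed to 159 to 249.5 CPM in proximal and 169 to 214 CPM in distal libraries. The 8 endothelial markers summed to at most 2.87 CPM, with PECAM1 at 0 counts in all libraries but proximal 2, and the 14 leukocyte markers to at most 6.53 CPM. Of these, 1 endothelial and 3 leukocyte markers had no counts or no row. The 8 adipocyte markers summed to at most 5.00 CPM. Fibroblast markers, mostly COL3A1, summed to 5424 to 6135 CPM in proximal and 4538 to 5608 CPM in distal libraries. DCN (314 to 584 CPM) and LUM (297 to 567 CPM) came next. COL1A1 had only 7.70 to 62.2 CPM, COL1A2 3.79 to 40.2 CPM and PDGFRA 0.244 to 1.28 CPM. The sum therefore does not stand for the list as a whole, and the fibroblast content was not tested. SCG5 and VGF were highest in proximal 3, where the sum of the Schwann cell markers was highest too, and whether nerve tissue contributed to them was not tested.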

How the data were processed

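RNA above an integrity number of 7.0 was made into TruSeq libraries from poly(A) RNA and sequenced on an Illumina NovaSeq X Plus, per the labels. The authors deposited raw counts of reads for each gene symbol. The submitters' processing notes name STAR 2.7.3a and featureCounts 2.0.1, Trimmomatic 0.39, bcl2fastq, DESeq2 and the build GRCh38. The sources used here give neither annotation nor strand setting. How host reads were treated is not stated, so host tissue could contribute to a count. Among the members, only SYP and SCG5 share exonic bases with another GENCODE v29 gene, antisense in both cases, over 1.3% and 0.501% of their exons.

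Counts were analysed in R 4.3.3 with edgeR 4.0.16: expression filter, TMM scaling, robust quasi-likelihood test of distal against proximal over 13382 genes, Benjamini-Hochberg adjustment at 0.05, no covariate. The standard error is the absolute log2 fold change over the square root of F. Log2 CPM used a prior count of 1. Exon lengths came from GENCODE v29, and positions and promoters from RefSeq GRCh38.p14. All members, the 4 tested genes with the highest mean CPM of each list, and the genes most like SYP and CHGB were named by rule. SYP was taken as the member with the highest mean CPM. CHGB was taken for the largest range of log2 CPM among members averaging at least 5 CPM, a limit that left out SCG3. The members and lists were chosen with earlier results of these data known. Alternatives were other scalings and filters, DESeq2 1.42.0, limma-voom (limma 3.58.1), the replicate number as a block, and libraries left out. Protein features were not computed. Some marker genes of the lists are not reported here by name.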

Additional observations from a re-analysis of the deposited data

How the results depend on the processing

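Each of the 16 alternative settings called 0 members and 0 genes of the granule and peptide lists. Over all genes 0 were called in 14 settings, while DESeq2 and the fit without distal 1 called 1, EDIL3 in both, so leaving out single libraries gave 0 to 1. Counting each of the 7 members in each of the 16 settings, the log2 fold change kept its direction in 102 cases and reversed in 10. These cases share libraries and are not independent. With single libraries left out they ran from -0.71 to 0.34 for CHGB, from -0.64 to 0.042 for SCG3, from -0.22 to 0.21 for VGF and from -0.31 to 0.13 for SCG5. Without proximal 3 and distal 3, the libraries with most muscle reads, they were 0.14 for SCG3, 0.43 for VGF and 0.19 for SCG5, and -0.97 for CHGB (unadjusted p 0.02188 by edgeR's quasi-likelihood test). The cause of these shifts was not tested. SYP, CHGA and CPE kept their direction in all of these settings, with CPE between -0.35 and -0.18 when single libraries were left out. Counts limit SCG2 and PCSK2, for which no difference was detectable at this depth.

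With the replicate number as a block, the log2 fold change of CPE was -0.27 (unadjusted p 0.04684), and 0 genes were called. Deviations from the group means correlated at 0.43, -0.14 and 0.21 for equal numbers 1, 2 and 3. For unequal numbers the correlations ran from -0.36 to 0.14. The 3 deviations of a group depend on each other, so these values cannot settle whether equal numbers mark paired libraries.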
